A study of Homo sapiens with 9 samples.

Results

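Cell surface proteins have long been used to sort pancreatic cancer cells with stem cell properties, and 10 genes that encode such markers were followed here among the 58735 genes of the count table. They were picked out by gene name, with earlier results of these data known: PODXL, CD44, CD24, PROM1, EPCAM, CXCR4, ABCG2, DCLK1, LGR5 and ALCAM. The cells were MIA PaCa-2, an established human pancreatic cancer line labelled WT. They were treated for 24 h with 0.1% DMSO, with 1 µM compound 1, an inhibitor of the kinases TBK1 and IKKε, or with 1 µM SCH772984, an inhibitor of the kinases ERK1 and ERK2. Each treatment had 3 RNA-seq libraries, all from this single line. The labels do not say whether libraries of a treatment came from separate cultures, so each p-value measures only the spread between these libraries, which may be technical.

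The markers differ in what they do at the membrane. PODXL is a sialomucin that loosens cell contacts and is tied to the actin cytoskeleton, CD44 binds hyaluronan in the matrix, and ALCAM (CD166) and EPCAM join cells to one another. CD24 is a small, heavily glycosylated protein held by a lipid anchor, and PROM1 (CD133) is a glycoprotein of membrane protrusions. CXCR4 is the receptor of the chemokine CXCL12, LGR5 a receptor of R-spondins, and ABCG2 a pump that exports drugs. DCLK1 is a kinase that binds microtubules and marks tuft cells. In pancreatic ductal carcinoma, combinations of CD44, CD24 and EPCAM, or PROM1 with CXCR4, have served to isolate tumor-initiating cells.

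Depth was 9464432 to 13887859 counts per library. Compound 1 replicate 1 was the most distant library of its group: gene counts differed from those of replicates 2 and 3 by a chi-square of 10.1 and 7.61 per degree of freedom, against 2.66 between replicates 2 and 3, 2.34 to 3.15 among DMSO libraries and 4.03 to 6.40 among SCH772984 libraries. To check the ERK inhibitor, 12 genes that ERK signaling is known to induce were read first. With SCH772984, 11 of the 11 tested were lower than with DMSO, as were 35% of all genes tested, at a median log2 fold change of -3.57 against 0.04 over all genes. DUSP6, a phosphatase that ERK induces, had 1 count with SCH772984 and 116 with DMSO over 3 libraries each. Both DUSP6 and DUSP5, at 3 to 8 counts with SCH772984, passed the filter on low counts only through the DMSO libraries. Where at least 10 counts were required in every library, 6 of these genes were tested and 6 were lower, beside 35.4% of all genes tested. SPRY4, a feedback inhibitor of the pathway, fell by 6.80 on the log2 scale (edgeR adjusted p = 1.03e-41). ETV5, a transcription factor that ERK signaling induces, fell by 6.53 (edgeR adjusted p = 6.47e-36). With compound 1, edgeR called 0 of 11, beside 0.864% of all genes, and 3 had an unadjusted p under 0.05, beside 15%. The smallest was that of SPRY2, another feedback inhibitor (log2 fold change -0.23, edgeR adjusted p = 0.149). Without compound 1 replicate 1, 2 were called lower, as were 798 of all genes, or 6.1% of those tested. The line expressed the ductal keratins KRT8, KRT18 and KRT19 and the mesenchymal filament gene VIM. The ductal keratin KRT7 had at most 5 counts in a library, and CDH1, which encodes E-cadherin, was at 0 in DMSO. The leukocyte genes PTPRC and CD3E were at 0 in every library.

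PODXL and CD44 carried nearly all of the marker RNA. Per length, in TPM, which scales counts by gene length and by library, PODXL averaged 799 ± 34.0 (SD, n = 3) in DMSO, rank 141 from the top of the 22276 genes with a count there, and CD44 averaged 664 ± 14.8, rank 184. Together they made up 98.2 to 99.8% of the summed TPM of the 10 genes in every library. In DMSO the other genes followed at a distance, with mean levels of 1.62 TPM for ALCAM, 0.734 for ABCG2, 0.733 for CXCR4 and 0.120 for CD24. PODXL lay above CD44 in each DMSO library, and CD44 lay far above ALCAM. The gene lengths are unions of annotated exons, 10004 bases over 39 transcripts for CD44 and 6874 over 8 for PODXL. The order of PODXL and CD44 depends on these lengths. Further down, the ranges of ABCG2 and CXCR4 overlapped in TPM, at 2 to 13 counts per library, as did those of CXCR4 and ALCAM, so CXCR4 was not resolved from ABCG2 or ALCAM. CD24, at 0 to 0.245 TPM, lay below CXCR4 in every library.

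**Figure D1:**
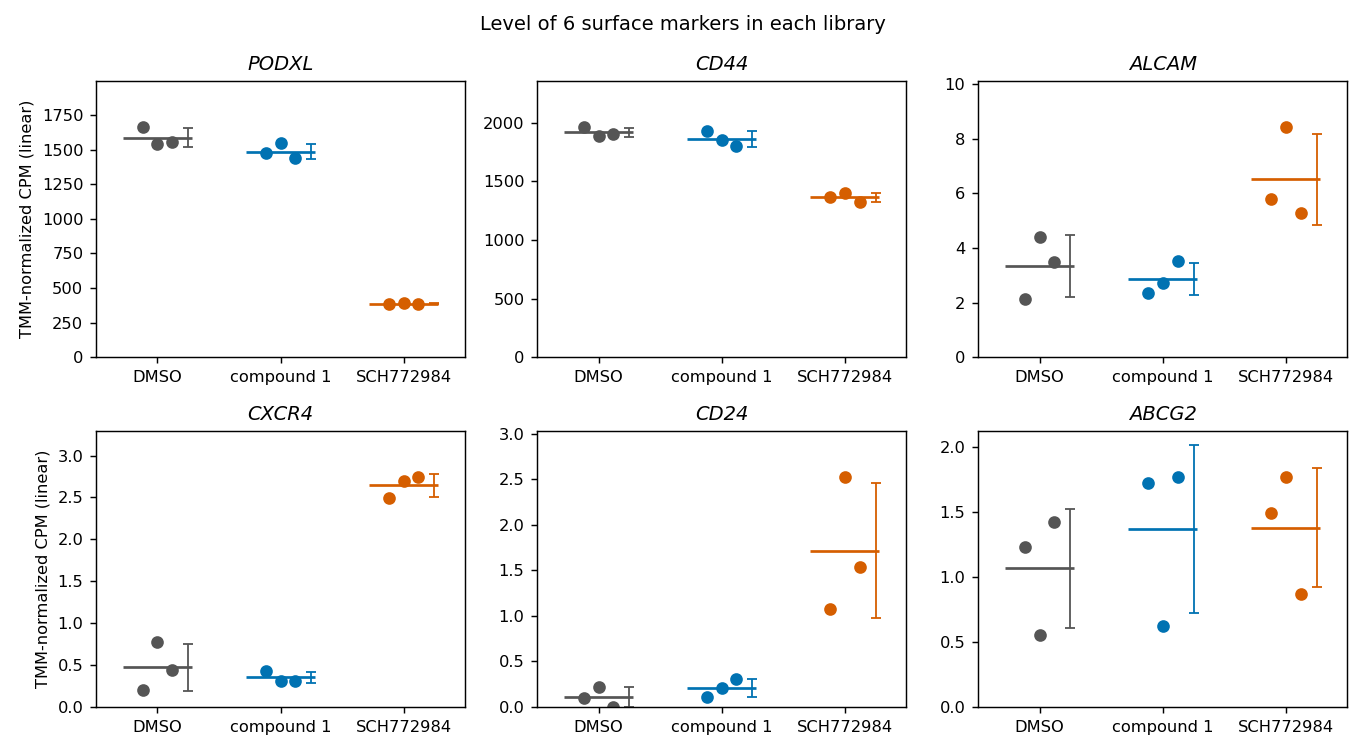
Level of 6 markers in each library, as points by treatment, in CPM, counts scaled to library size, on linear axes that differ between panels, with the mean as a line and the SD as a bar (n = 3). With SCH772984 the points of PODXL, at 384 to 392 CPM, and of CD44 lie below all other libraries, those of ALCAM, CXCR4 and CD24 above them, and ABCG2 overlaps throughout.

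EPCAM, DCLK1 and LGR5 were too low to judge. Each had 0 counts in all 9 libraries, which allows up to 0.216 to 0.317 CPM, in counts scaled to library size, in 1 library and 0.0317 CPM over all 94774249 counts. These limits cover counting error only. PROM1 had 5 counts in all, of which 4 were in compound 1 replicate 3 and 1 in SCH772984 replicate 1, and it was not tested. EPCAM lies on chromosome 2 of GRCh38 from 47345158 to 47387601, DCLK1 on chromosome 13 from 35768652 to 36131306, LGR5 on chromosome 12 from 71439770 to 71586310, and PROM1 on chromosome 4 from 15963076 to 16084378. No change in these 4 genes was detectable at this depth. CD24, with at most 3 counts in any DMSO or compound 1 library, could be judged only where SCH772984 was involved.

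The comparison of SCH772984 with DMSO asked how the markers stood 24 h after ERK inhibition. PODXL and CD44, both abundant, were lower, and the scarce ALCAM, CXCR4 and CD24 were higher. ABCG2 did not pass the test. This split must be read against a large response in the whole transcriptome: of 13834 genes tested by edgeR's quasi-likelihood test, 72.7% were called at an adjusted p under 0.05, 37.7% higher and 35% lower. Among the 4630 tested genes averaging under 10 CPM, 47.1% were called higher. Of the 10 markers, 6 were tested and 5 called. CXCR4 and CD24 passed the filter on low counts only through the SCH772984 libraries, so that count is no measure of how often markers responded.

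PODXL fell most among the abundant markers. Its gene occupies chromosome 7 from 131500262 to 131558217 on the minus strand, and none of its exon bases overlap those of another gene in the annotation. DMSO libraries held 1662, 1538 and 1555 CPM and SCH772984 libraries 384, 392 and 387 CPM. The 3 treated libraries lay close together and far below the controls, with no overlap. PODXL was 4.07-fold lower (95% interval 3.75 to 4.43; log2 fold change -2.03, SE 0.06; edgeR adjusted p = 7.08e-32). A call with a change of at least 2-fold, which PODXL had, was reached by 28.8% of genes tested. Its mean TPM was 205 ± 4.39 (SD, n = 3) and its rank 638 from the top. In RNA from whole cultures, fewer cells carrying a transcript and less of it per cell cannot be told apart.

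CD44 fell by much less. Its gene lies on chromosome 11 from 35138870 to 35232402 on the plus strand, and 84 of its exon bases are shared with the antisense gene CD44-AS1, which had 4 to 18 counts per library. CD44 was at 1964, 1887 and 1905 CPM in DMSO and at 1370, 1400 and 1323 CPM with SCH772984. The groups did not overlap, as was so for 74.3% of genes tested. The difference was 1.40-fold (95% interval 1.29 to 1.52 lower; log2 fold change -0.49, SE 0.06; edgeR adjusted p = 2.33e-10). The intervals of the PODXL and CD44 folds do not meet, and per length the order of the 2 genes changed, whereas in CPM, which ignores length, CD44 was above PODXL in every library. PODXL per CD44, both in TPM, was 1.23, 1.19 and 1.19 in the DMSO libraries and 0.408, 0.407 and 0.426 in the SCH772984 libraries. Since both levels come from the same library, this ratio does not depend on how libraries were scaled. Its size, and so its place relative to 1, does depend on the gene lengths used.

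**Figure D2:**
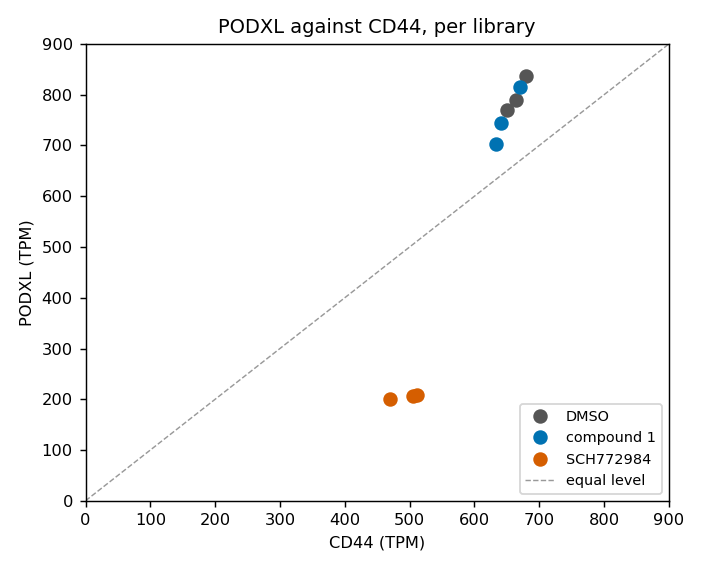
PODXL against CD44 in each of the 9 libraries, in TPM on linear axes, with the line of equal levels. DMSO and compound 1 libraries lie above the line, at ratios of 1.11 to 1.23, and SCH772984 libraries below it, at 0.407 to 0.426. Where the line falls among the libraries depends on the gene lengths used.

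ALCAM, an adhesion molecule of the immunoglobulin family, had the highest mean of the scarce markers in DMSO, though its range in TPM overlapped that of CXCR4. It lies on chromosome 3 from 105366909 to 105576900 on the plus strand. It had 21, 40 and 32 counts in DMSO and 70, 100 and 79 with SCH772984, and every treated library was above every control. The mean level went from 3.35 ± 1.14 to 6.51 ± 1.68 CPM (SD, n = 3). ALCAM was 1.95-fold higher (95% interval 1.39 to 2.73; log2 fold change 0.96, SE 0.24; edgeR adjusted p = 0.000481).

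CXCR4 and CD24 went from near 0 to a low but countable level. CXCR4, on chromosome 2 from 136114349 to 136118165, had 2, 7 and 4 counts in DMSO and 30, 32 and 41 with SCH772984. All 3 treated libraries were above all controls, at 5.61-fold (95% interval 3.09 to 10.2; log2 fold change 2.49, SE 0.43; edgeR adjusted p = 1.4e-06). CD24, on chromosome 6 from 106969831 to 106975627, had 1, 2 and 0 counts in DMSO and 13, 30 and 23 with SCH772984. On the scaled library sizes used for CPM, its 66 counts against 3 give a ratio of 15.9. The exact 95% counting interval is 5.19 to 78.9 (edgeR adjusted p = 1.26e-06). The fitted log2 fold change of CD24, 3.86, became 4.73 without DMSO replicate 2 and stayed past the threshold. The CD24 value is uncertain for a further reason: near-identical processed pseudogenes exist, of which CD24P1 had at most 3 counts in a library, and how reads matching several places were treated is not given in the sources used here. At their treated levels of 4.32 ± 0.118 TPM (CXCR4) and 2.01 ± 0.850 TPM (CD24), both remained far below CD44 at 496 ± 22.7 TPM.

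ABCG2, on chromosome 4 from 88090264 to 88231322, showed no call. It had 12, 5 and 13 counts in DMSO and 18, 21 and 13 with SCH772984, and the groups overlapped. The log2 fold change was 0.34 with a 95% interval of -0.50 to 1.19 (edgeR adjusted p = 0.472), so a fold of up to 2.28 higher or a value of 0.705 of the control is within its error. With SCH772984, the levels per length ran CD44, PODXL, CXCR4, ALCAM, CD24 and ABCG2. Of these neighbors, CXCR4 and ALCAM overlapped in TPM, and so did ALCAM and CD24.

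**Figure D3:**
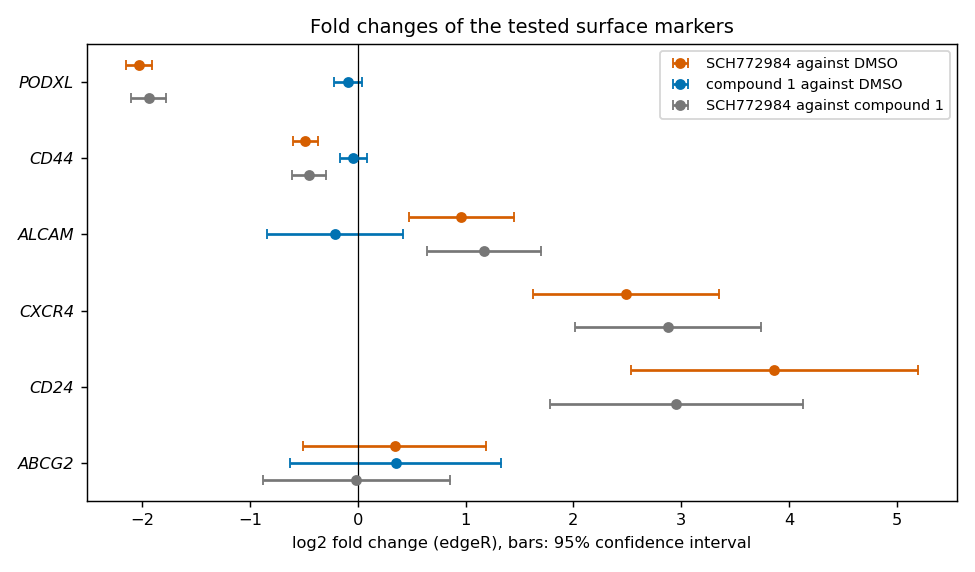
Log2 fold change of each tested marker in the 3 comparisons, as a point with its 95% interval from the edgeR fits. PODXL and CD44 lie below 0 and ALCAM, CXCR4 and CD24 above 0 in both comparisons with SCH772984, and every interval of compound 1 against DMSO crosses 0.

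The start regions of the 3 markers that were higher are shown so that their base composition and motif matches can be read beside the values. Each run is a RefSeq window on GRCh38.p14, read 5′ to 3′ on the gene's own strand, from 250 bases before the start to 50 after it. Capitals mark matches on either strand to the GC box GGGCGG, the TATA box TATAAA and the NF-kB motif. CD24 is chr6:106975578-106975877 on the minus strand, CXCR4 is chr2:136118100-136118399 on the minus strand, and ALCAM is chr3:105366659-105366958 on the plus strand.
CD24: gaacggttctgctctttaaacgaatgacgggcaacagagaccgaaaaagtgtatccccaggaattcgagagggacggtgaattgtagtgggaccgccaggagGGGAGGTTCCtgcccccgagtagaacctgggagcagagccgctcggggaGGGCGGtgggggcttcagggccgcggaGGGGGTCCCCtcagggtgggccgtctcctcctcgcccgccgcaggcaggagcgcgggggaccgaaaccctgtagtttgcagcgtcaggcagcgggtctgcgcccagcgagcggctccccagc
CXCR4: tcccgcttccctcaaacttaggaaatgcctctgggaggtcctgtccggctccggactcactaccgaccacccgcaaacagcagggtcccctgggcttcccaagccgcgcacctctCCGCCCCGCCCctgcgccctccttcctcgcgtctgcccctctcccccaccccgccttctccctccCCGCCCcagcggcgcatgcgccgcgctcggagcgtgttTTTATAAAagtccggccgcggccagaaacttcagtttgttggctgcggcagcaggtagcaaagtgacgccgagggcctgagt
ALCAM: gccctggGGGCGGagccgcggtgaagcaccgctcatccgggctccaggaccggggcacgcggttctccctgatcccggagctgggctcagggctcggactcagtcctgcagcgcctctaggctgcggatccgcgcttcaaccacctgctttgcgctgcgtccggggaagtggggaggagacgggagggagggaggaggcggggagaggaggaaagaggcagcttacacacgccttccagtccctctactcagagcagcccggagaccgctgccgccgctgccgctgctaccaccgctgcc

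The 3 windows were rich in G and C, at 66.7, 66.7 and 70.0% against a median of 58.7% over 35116 RefSeq windows of the same length. They held 25, 27 and 26 CpG pairs against a median of 14. This composition was not particular to them: the window of DCLK1, at 0 counts, had 69.0% G and C and 27 CpG pairs, and that of CD44, which was lower, 63.3% and 18. A GC box was in each, as it was in the windows of DCLK1 and CD44 and in 45.0% of all windows. In CXCR4, 2 of the 3 GC box matches overlap, and the TATA box lies 30 bases before the start and is read on both strands. CD24 held 2 NF-kB motif matches, 148 and 72 bases before the start, a motif found in 11.3% of all windows. Neither the AP-1 letters TGANTCA, in 7.71% of windows, nor the ETS letters CCGGAAG, in 10.3%, occurred in these 3. The CRE (TGACGTCA, 1.85% of windows), TCF/LEF (CTTTGAT, 2.62%), FOXO (GTAAACA, 3.42%) and SRF CArG box (1.29%) motifs had no match in them either. Windows were read for 7 of the 10 markers, and PODXL, EPCAM and LGR5 were not among them.

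The comparison of compound 1 with DMSO asked the same of TBK1 and IKKε inhibition, and no marker was called. Few genes were called at all: 0.864% of 12849 tested, 0.49% higher and 0.374% lower. Of the markers, 4 were tested, 0 were called by edgeR or by DESeq2, and 0 had an unadjusted p under 0.05, which 15% of all tested genes had. PODXL was at 1471, 1544 and 1441 CPM with compound 1, overlapping DMSO (20.9% of genes tested did not overlap), at a log2 fold change of -0.09 with a 95% interval of -0.22 to 0.04 (edgeR adjusted p = 0.526). CD44 was at 1933, 1850 and 1805 CPM, at -0.04 with an interval of -0.16 to 0.08 (edgeR adjusted p = 0.794). For these 2 abundant genes the intervals are narrow: as folds they run from 0.859 to 1.03 and from 0.894 to 1.06. A PODXL change of the size seen with SCH772984 lies outside them.

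For the scarce markers the same comparison says little. ALCAM had 22, 26 and 34 counts with compound 1, and its interval runs from 0.556 to 1.34-fold (edgeR adjusted p = 0.79). ABCG2 had 16, 6 and 17 counts, with an interval of 0.648 to 2.51-fold (edgeR adjusted p = 0.772). CXCR4, at 4, 3 and 3 counts, and CD24, at 1, 2 and 3 counts, were below the filter and not tested. Their counting ratios to DMSO were 0.755 (0.296 to 1.86) for CXCR4 and 1.96 (0.419 to 12.1) for CD24. Without compound 1 replicate 1, 453 genes (3.46% of those tested) were called higher and 798 (6.1%) lower with compound 1. Of the 4 markers tested in that fit 0 were called, and 4 are too few to differ from these shares.

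Set directly against compound 1, SCH772984 gave lower PODXL and CD44 and higher ALCAM, CXCR4 and CD24. Here 66.3% of 13863 genes were called, 33.7% higher and 32.6% lower. The groups did not overlap for these 5 markers, nor for 69.3% of genes tested. These libraries are the same SCH772984 libraries as above, so the values are not independent of the comparison with DMSO. PODXL was 3.83-fold lower (95% interval 3.42 to 4.29; edgeR adjusted p = 3.29e-14). CD44 was 1.36-fold lower (1.22 to 1.52; edgeR adjusted p = 2.76e-05). ALCAM was 2.25-fold higher (1.56 to 3.24; edgeR adjusted p = 0.000373). CXCR4 and CD24 again passed the filter only through the SCH772984 libraries. CXCR4 was 7.35-fold higher (4.05 to 13.4; edgeR adjusted p = 3.6e-06). CD24 had 66 counts against 6, a ratio of 8.08 (3.52 to 22.8; edgeR adjusted p = 0.000107). ABCG2 stood at a log2 fold change of -0.01 (-0.88 to 0.85; edgeR adjusted p = 0.98), and the sign of this value depends on the processing.

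Relatives of the markers were read from a list of 16 genes of the same families, of which 8 were tested in SCH772984 against DMSO. Of these, 7 were higher and 1 lower, at a median log2 fold change of 1.52, beside 37.7% higher and 35% lower over all genes tested. Among the 7, ABCG4, at 6 to 9 counts in DMSO, passed the filter only through the SCH772984 libraries, so the count is a description. ACKR3, another receptor of CXCL12, rose from 18.9 ± 1.73 to 93.4 ± 11.3 CPM (SD, n = 3), at 2.31 on the log2 scale (edgeR adjusted p = 1.29e-25). BCAM, a laminin receptor of the immunoglobulin family, rose by 2.01 (edgeR adjusted p = 7.62e-25), and LGR4, an R-spondin receptor, by 1.59 (edgeR adjusted p = 8.01e-14). PODXL2, a sialomucin related to PODXL, fell by 0.83 on the log2 scale (edgeR adjusted p = 1.41e-12). With compound 1, 0 of 7 tested relatives were called by edgeR, and 0 had an unadjusted p under 0.05, the smallest being that of ACKR3 (log2 fold change -0.14, edgeR adjusted p = 0.648).

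Ligands and binding partners were called about as often as all genes tested (72.7%). Of 22 listed, 10 were tested in SCH772984 against DMSO, with 3 higher and 4 lower at a median log2 fold change of -0.13. SRGN, a proteoglycan core protein that can bind CD44, fell by 2.45 on the log2 scale, from 812 ± 47.8 to 148 ± 9.73 CPM (SD, n = 3; edgeR adjusted p = 1.04e-33). HMMR, a hyaluronan receptor active in mitosis, fell by 1.31 (edgeR adjusted p = 4.77e-23), and SLC9A3R1, the scaffold that links PODXL to ezrin, by 0.66 (edgeR adjusted p = 2.07e-10). VCAN, a hyaluronan-binding proteoglycan that passed the filter only through the SCH772984 libraries, rose by 2.18 (edgeR adjusted p = 7.39e-06), RDX, an actin linker, by 0.77 (edgeR adjusted p = 2.72e-14), and RSPO4, an R-spondin, by 0.58 (edgeR adjusted p = 0.00189). CXCL12 had 0 counts in every library. With compound 1, 0 of 9 were called and 2 had an unadjusted p under 0.05. The smallest was that of SRGN, at 0.29 on the log2 scale (edgeR adjusted p = 0.0661), which DESeq2 called. Without compound 1 replicate 1, 1 of the 9 was called higher and 1 lower, beside 3.46% and 6.1% of all genes tested.

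Among 14 genes that cleave, splice or turn over the markers, 9 were tested, and SCH772984 gave 6 higher and 2 lower at a median of 0.19, beside 37.7% higher and 35% lower over all genes. The sheddases ADAM17, at 0.70, and MMP14, at 1.02, and the γ-secretase subunit NCSTN, at 0.54, were higher on the log2 scale (edgeR adjusted p = 1.04e-11, 0.0106 and 1.04e-10). MMP14, at 8 to 12 counts in DMSO, would not have passed the filter on its DMSO libraries alone. The γ-secretase subunit APH1A fell by 0.49 and ZNRF3, a ligase that removes Wnt receptors, by 0.68 (edgeR adjusted p = 2.21e-08 and 3.1e-08). Without DMSO replicate 3, 3 of the 9 were called higher, beside 34.8% of all genes tested. With compound 1, edgeR called 0 of 9, and 2 had an unadjusted p under 0.05, MMP14 having the smallest (log2 fold change 0.87, edgeR adjusted p = 0.274).

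Of 20 other stem cell markers listed, 13 were tested in SCH772984 against DMSO, with 4 higher and 7 lower at a median of -0.23, beside 37.7% higher and 35% lower over all genes. ALDH1A1, an aldehyde dehydrogenase whose activity is used to sort stem-like cells, rose from 1200 ± 48.0 to 3382 ± 279 CPM (SD, n = 3), a 2.83-fold difference (edgeR adjusted p = 3.92e-26). The related ALDH1A3 went the other way and fell by 1.76 (edgeR adjusted p = 2.52e-23). The drug exporter ABCC1 rose by 1.45 (edgeR adjusted p = 1.23e-25) and the receptor MET by 0.79 (edgeR adjusted p = 2.92e-09). NES, an intermediate filament gene of progenitors, fell by 2.01 (edgeR adjusted p = 9.22e-10) and SOX9, a factor of ductal progenitors, by 1.17 (edgeR adjusted p = 1.09e-19). With compound 1, edgeR called 0 of 13, and 3 had an unadjusted p under 0.05, the smallest being that of ABCC1 (log2 fold change -0.23, edgeR adjusted p = 0.137). Without compound 1 replicate 1, 2 of the 13 were called lower, beside 6.1% of all genes tested.

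The lists were also read in SCH772984 against compound 1, with the same SCH772984 libraries. Some listed genes again passed the filter on low counts only through the group where they were high. Relatives had 7 higher and 1 lower of 8 tested, ligands and partners 3 and 3 of 10, turnover factors 3 and 2 of 9 (6 higher against DMSO), other stem cell markers 4 and 7 of 13, and ERK output genes 0 and 11 of 11, beside 33.7% higher and 32.6% lower over all genes. The γ-secretase subunit PSENEN was among the turnover factors called higher, at 0.39 on the log2 scale (edgeR adjusted p = 0.0274).

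**Figure D4:**
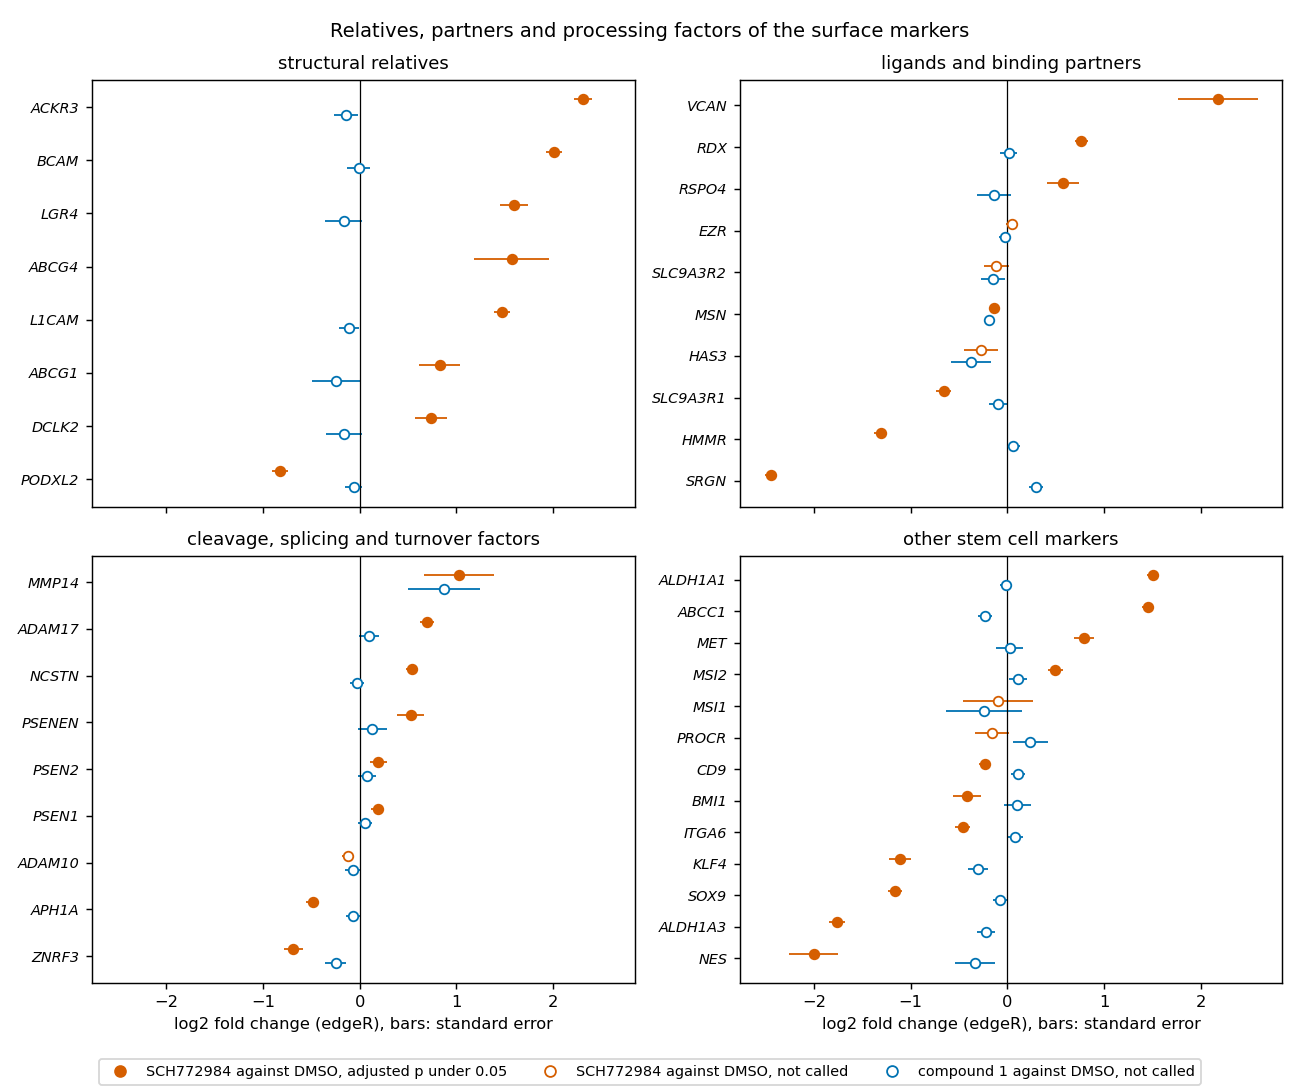
Log2 fold change of every tested gene in 4 lists, 1 panel each, for SCH772984 against DMSO (orange) and compound 1 against DMSO (blue), with bars for the standard error and filled points for an adjusted p under 0.05. With SCH772984, 7 of 8 relatives lie above 0 while the other lists spread to both sides, and no compound 1 point is filled.

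Marker lists of cell types were read as levels, without a test. Summed over 7 ductal markers, the level was 3534 to 3808 CPM in DMSO, 3029 to 3825 with compound 1 and 1199 to 1363 with SCH772984. KRT8 and KRT18 made up most of this sum, KRT8 going from 2410 to 2549 CPM in DMSO to 723 to 817 with SCH772984. CLDN4 was also lower, at 63.4 to 76.7 CPM in DMSO and 42.2 to 45.4 with SCH772984, but KRT19 was at 227 to 278 and 251 to 289 CPM, and MUC1 at 3.97 to 5.57 and 25.8 to 40.7 CPM. Summed over 5 fibroblast markers it was 457 to 506, 468 to 531 and 992 to 1121 CPM, of which COL1A2 supplied most. COL1A1 was at 0.110 to 0.409 CPM in DMSO and 2.36 to 3.22 with SCH772984, and PDGFRB at 0 to 0.218 and 5.39 to 6.80, while DCN and LUM had no more than 1 count in a library. The 4 mesenchymal markers summed to 2438 to 2608, 2514 to 2903 and 1952 to 2314 CPM, nearly all of it VIM. ZEB1 went from 33.2 to 38.8 CPM in DMSO to 20.1 to 25.8 with SCH772984, and FN1 went from 0.771 to 1.75 CPM in DMSO to 2.95 to 4.38 with SCH772984. The 5 leukocyte markers stayed at or below 1.56 CPM in sum. The 4 endothelial markers summed to 2.87 to 4.48 CPM in DMSO, 6.22 to 6.77 with compound 1 and 0 to 0.536 with SCH772984, mostly CDH5. Their part in the marker changes was not tested.

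Across all 9 libraries, the genes whose log2 CPM followed PODXL most closely were CCNA2, a cyclin of DNA replication, EPHA2, an ephrin receptor, and MCM4, a subunit of the replicative helicase, each at a Pearson r of 0.999. With 3 treatments and a wide response to SCH772984 this is not selective, as 2171 of 13321 genes compared had an r above 0.95. The genes closest to CD24 were BIVM, PLA2G6 and OFD1, at r of 0.983, 0.981 and 0.980, and 80 genes had an r above 0.95. These values describe 9 libraries that share treatments and carry no test.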

How the data were processed

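RNA was extracted from MIA PaCa-2 cells and sequenced as 9 libraries, 3 per treatment. The deposited values are whole-number counts of reads per gene, made by the authors without normalization. The submitters' processing notes name hg38, HISAT2 2.0.5 and featureCounts 1.5.0-p3, and the strand setting and the handling of multiply mapped reads are not given in the sources used here. All 58735 genes matched GENCODE 29 by ID, name and position. Gene lengths, a deposited column, were used for TPM.

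Each comparison was fitted separately over all genes in edgeR 4.0.16 under R 4.3.3 (TMM scaling, filterByExpr with a minimum count of 10 and a minimum total of 15, robust quasi-likelihood test), with Benjamini-Hochberg adjustment over all genes tested and a call at an adjusted p under 0.05. CPM used TMM factors over all 9 libraries, and a gene with at most 3 counts in every library of a group was taken as at the floor. Ratios of low counts carry exact 95% binomial intervals on library totals multiplied by the TMM factors. The fitting script was tested on simulated counts.

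The markers and gene lists were chosen with earlier results of these data known. All 10 markers were named. Of each list, up to 3 called genes with the largest absolute log2 fold change in each direction and a mean of at least 1 CPM were named, or, where none was called, the tested gene with the smallest unadjusted p. In SCH772984 against compound 1 the genes so named were those named against DMSO, with PSENEN in place of MMP14, and values are printed for PSENEN. CXCL12, DCN, LUM and ABCG4 and the ductal, mesenchymal, fibroblast, leukocyte and endothelial genes named singly, like those in the closing observations, were named outside this rule, after their values were seen. Alternatives were library size or RLE scaling, no filter or at least 10 counts in every library, DESeq2 1.42.0, a fit of all 9 libraries, a replicate block, each library left out in turn, and other thresholds. Promoter windows are from RefSeq.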

Additional observations from a re-analysis of the deposited data

How the results depend on the processing

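Under the 15 alternatives of each comparison, PODXL and CD44 stayed lower and ALCAM, CXCR4 and CD24 stayed higher with SCH772984 wherever they were tested, and 0 markers were called with compound 1. Against DMSO the log2 fold change ranged from -2.08 to -1.87 for PODXL, -0.53 to -0.33 for CD44, 0.68 to 1.18 for ALCAM, 2.09 to 2.99 for CXCR4 and 3.31 to 4.73 for CD24. With at least 10 counts in every library, only 3 markers were tested and the number higher was 1 in place of 3, against DMSO and against compound 1. With a change of at least 2-fold also required, the number lower was 1 in place of 2 in both, since CD44 changed by less, and ALCAM no longer passed against DMSO. Scaling by library size alone moved the median of all genes by 0.16, so that 61.4% of calls against DMSO were higher in place of 51.8%, and moved the compound 1 split from 56.8 to 77.3% higher. Relative to that median, PODXL was at -2.07 and CD44 at -0.53 under both scalings.

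Among the markers, signs turned only for values that were not called. ALCAM with compound 1 ranged from -0.459 to 0.0293 over fits that left out 1 library, the latter without DMSO replicate 2. ABCG2 in SCH772984 against compound 1 was at 0.12 with library size alone, 0.000985 with the replicate block, and 0.18, 0.19 and 0.26 without compound 1 replicate 1, compound 1 replicate 3 and SCH772984 replicate 3, with a lowest value of -0.366 without compound 1 replicate 2. The cause was not tested. Deviations of same-numbered libraries had correlations of -0.07 to 0.12. With 3 libraries per treatment this cannot decide whether the numbers pair samples. The replicate block left 3 markers higher and 2 lower against DMSO and called 193 genes higher and 219 lower with compound 1 in place of 63 and 48. No filter gave 189 higher and 228 lower with compound 1, DESeq2 104 and 102, and leaving out 1 library gave 5 to 453 higher and 3 to 798 lower. Depth limits the scarce markers, as a count of 0 allows up to 0.317 CPM in the shallowest library.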

Other observations

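Some genes known from epithelial cells were close to 0, although others such as KRT8, at 2410 to 2549 CPM in DMSO, and CLDN4, at 63.4 to 76.7 CPM, were not. CLDN7, a claudin that associates with EPCAM, had 0 to 3 counts per library, and the epithelial splicing factors ESRP1 and ESRP2, which act on CD44, had 0 to 4 and 0 to 6. RNF43, a Wnt receptor ligase, had 0 counts in every library, as did SOX2 and NANOG. Of the 84 genes on the 5 lists, 14 were at 0 throughout, a smaller share than over the whole table, where only 29048 of 58735 genes were counted at all. These genes were picked after their values were seen.

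MIF, a cytokine that signals through CD74 and CD44 and that most cells express strongly, had only 1 to 12 counts per library, and 687 of its 1109 exon bases overlap the antisense gene MIF-AS1, itself at 2 to 15 counts, and 357 overlap the same-strand gene AP000350.4. The strand setting of the counting is not given in the sources used here, so this MIF count is uncertain. No marker shared more than 3.96% of its exon bases with another gene.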
